A study of Mus musculus with 2 samples.

Results

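Among the annotated transcripts of the mouse genes read in the adrenal gland, 381 were of the class retained intron and had at least 5 reads. They were chosen by their measured reads, summed over both libraries, out of 21297 annotated transcripts with reads, of which 2329 were retained-intron transcripts. The annotation, GENCODE M21 on the mouse build mm10, holds 21848 transcripts of this class, so 10.7% of them had a read. The members belonged to 344 genes, 331 of them protein-coding, and 33 genes had more than 1 member. Because the reads chose them, the read counts and shares of the members are given as a description.

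The data are long-read RNA sequencing of total RNA from adrenal glands of B6CASTF1/J mice, F1 hybrids whose parents are the strains C57BL/6J and CAST/EiJ. The mice were female, aged 25 days, and no treatment is named. The 2 libraries, biological replicates 1 and 2 by their labels, form 1 group, so no condition was compared. The tissue descriptions name a different animal for each library, but the library descriptions name the same animal for both, so the spread between the libraries may be technical. Replicate 1 held 426150 reads and replicate 2 held 770041 reads, of which 306140 and 548362 were on annotated mouse transcripts. The label adrenal gland matched its markers: Cyp11a1, which begins steroid synthesis in the cortex, had 11136 reads in replicate 1 and 17191 in replicate 2, and Chga, the chromogranin of the medulla, had 1916 and 3799. Ucp1, the marker of brown fat, had 209 and 199 reads, and its part in the results was not tested. The kidney gene Umod had 0 reads in both, and the liver gene Alb had 32 reads in replicate 1 and 1 in replicate 2. In bulk tissue, fewer cells of a type and less RNA per cell cannot be told apart.

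An intron is removed from a pre-mRNA by the spliceosome, which recognises the GT at the start of nearly every intron and the AG at its end. A transcript that keeps an intron carries its bases between the exons, and where that intron lies within the coding sequence the reading frame runs on into it, often to an early stop codon. Such transcripts may be held in the nucleus, spliced later, or exported and degraded by nonsense-mediated decay, and genes of splicing proteins are known for using them to set their own level. The annotation class retained intron is wider than this, and takes transcripts whether or not a whole intron is kept. They hold intronic sequence relative to other transcripts of their gene, which for most members is a protein-coding gene.

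The kept introns of the most read members are shown first, since their letters carry what distinguishes these transcripts. The sequences are from the GENCODE M21 transcripts on mm10, written 5′ to 3′ on the gene's strand with 10 exon bases at either side. Capitals mark the first 2 and last 2 intron bases and, where the whole intron is printed, the first stop codon in the frame of the upstream exon. Rsrp1-204 keeps intron 3 of 4 of the coding transcript, chr4:134925433-134926734 on the plus strand and 1302 bases long. Pgp-202 keeps its gene's only intron, chr17:24471150-24471241 on the plus strand and 92 bases long. Stub1-206 keeps intron 4 of 6, chr17:25831366-25831543 on the minus strand and 178 bases long. Hes6-202 keeps intron 3 of 3, chr1:91412483-91412720 on the minus strand and 238 bases long, and is shown because no in-frame stop was found in it. Arglu1-204 keeps intron 2 of 3, chr8:8681468-8683747 on the minus strand and 2280 bases long.
Rsrp1-204 intron start: aaaggtggagGTaagtgccttcaggaagct
Rsrp1-204 intron end: aaaattctcttcctctttAGcattcagaaa
Arglu1-204 intron start: agccagagagGTaacgctcggtcgtttgga
Arglu1-204 intron end: caacatgtcctcccctttAGgaggaagaga
Pgp-202 whole intron: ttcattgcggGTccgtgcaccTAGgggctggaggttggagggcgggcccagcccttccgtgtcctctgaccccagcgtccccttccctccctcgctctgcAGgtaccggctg
Stub1-206 whole intron: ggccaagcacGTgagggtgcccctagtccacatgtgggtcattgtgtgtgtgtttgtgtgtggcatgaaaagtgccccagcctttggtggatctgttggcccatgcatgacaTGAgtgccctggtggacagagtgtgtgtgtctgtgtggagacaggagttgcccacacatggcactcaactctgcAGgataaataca
Hes6-202 whole intron: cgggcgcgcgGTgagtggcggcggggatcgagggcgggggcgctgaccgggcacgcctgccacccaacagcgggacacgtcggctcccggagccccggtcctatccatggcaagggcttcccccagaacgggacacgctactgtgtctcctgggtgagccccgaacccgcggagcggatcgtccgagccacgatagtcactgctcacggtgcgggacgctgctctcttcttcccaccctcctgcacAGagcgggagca

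All of these introns begin with GT and end with AG. The first in-frame stop began at intron base 12 in Pgp, 103 in Stub1, 103 in Arglu1 and 49 in Rsrp1, counting from 1 at the first intron base.

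Retained-intron transcripts were a small part of the adrenal transcriptome. The members held 2511 of the annotated-transcript reads of replicate 1, 0.820% with a 95% Wilson interval of 0.789 to 0.853, and 4496 of those of replicate 2, 0.820% with an interval of 0.796 to 0.844. The reads that chose the members are the reads counted here, so their near-equality carries no test; with members chosen by replicate 1 alone the values were 0.631% and 0.549%, and by replicate 2 alone 0.695% and 0.740%. No molecular identifiers were counted, so reads may repeat a molecule and intervals, which cover counting error only, may be too narrow. All 2329 retained-intron transcripts together held 1.16% of the reads in replicate 1 and 1.19% in replicate 2. Protein-coding transcripts held 94.9% and 94.8%, and transcripts annotated as targets of nonsense-mediated decay 0.331% and 0.349%.

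Those reads were spread very unevenly over the members. The most read pair, Cox4i1-204 and Rsrp1-204, held 27.8% of the member reads of replicate 1 and 26.7% of those of replicate 2, and the 25 most read held 50.6% and 47.4%. Without that pair the members held 0.593% of the annotated-transcript reads in replicate 1 and 0.601% in replicate 2. The median member had 9 reads over both libraries, 167 members had at least 10, 61 had at least 20 and 5 had at least 100. At the lower edge, 82 members had 5 reads and 110 retained-intron transcripts just outside had 4, while 1229 had a single read. Reads were found in both libraries for 356 members; the other 25 had 0 reads in replicate 1 (a count that allows up to 3 reads), and no member had 0 in replicate 2.

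Cox4i1-204, a transcript of the gene for a subunit of cytochrome c oxidase, was the most read member. It had 449 of the gene's 863 annotated-transcript reads in replicate 1, a share of 52.0% with an interval of 48.7 to 55.3, and 620 of 1495 in replicate 2, 41.5% with an interval of 39.0 to 44.0. It lies at chr8:120672590-120674113 on the plus strand and has 3 exons. Its start is 4368 bases downstream of that of the coding transcript Cox4i1-201, inside the second intron, and 135 of its 578 bases are intronic. From there on its splicing is that of the coding transcript, so it holds no whole intron. Cox4i1-201 had 398 reads in replicate 1 and 852 in replicate 2, so the member led in replicate 1 and the coding transcript in replicate 2.

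Rsrp1-204 is the clearest case of a whole intron kept in the messenger RNA. Rsrp1 encodes a protein rich in arginine and serine, as many splicing factors are, and lies at chr4:134923592-134927671 on the plus strand. The member had 248 of 395 annotated-transcript reads in replicate 1, 62.8% with an interval of 57.9 to 67.4, and 580 of 675 in replicate 2, 85.9% with an interval of 83.1 to 88.3. It starts and ends where the coding transcript Rsrp1-201 does, and the 1302-base intron whose ends are printed above is what sets them apart. Rsrp1-201 had 145 reads in replicate 1 and 93 in replicate 2. The coding transcript was thus the less read one in both libraries, and the share of the member was higher in replicate 2.

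Rpl5-204 follows with 92 of 123 reads in replicate 1, 74.8% with an interval of 66.5 to 81.6, and 114 of 176 in replicate 2, 64.8% with an interval of 57.5 to 71.4. Rpl5 encodes a protein of the large ribosomal subunit that also binds 5S ribosomal RNA. Like the Cox4i1 member, this transcript starts inside an intron of its coding counterpart and then follows its splicing, with 603 intronic bases. Genes of ribosomal proteins have many processed pseudogene copies, so reads of their spliced parts are uncertain where counting could split them.

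Ccnl2-205 had the highest share of its gene when members are ranked by the lower of their 2 shares, in genes with at least 20 reads in each library: 31 of 39 reads in replicate 1 (79.5%) and 68 of 84 in replicate 2 (81.0%). Ccnl2 encodes cyclin L2, a cyclin of nuclear speckles that takes part in splicing. The member has 11 exons, as many as the coding transcript Ccnl2-201, but its sixth exon begins 1790 bases earlier, in the preceding intron. The 2 libraries gave overlapping intervals, 64.5 to 89.2 in replicate 1 and 71.3 to 87.9 in replicate 2. Over all models of the gene, annotated or not, its share was 27.4% in replicate 1 and 32.1% in replicate 2, below those of Rpl5-204 (69.7% and 62.0%), Fxyd1-213 (58.1% and 53.0%) and Rsrp1-204 (55.4% and 75%).

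**Figure D1:**
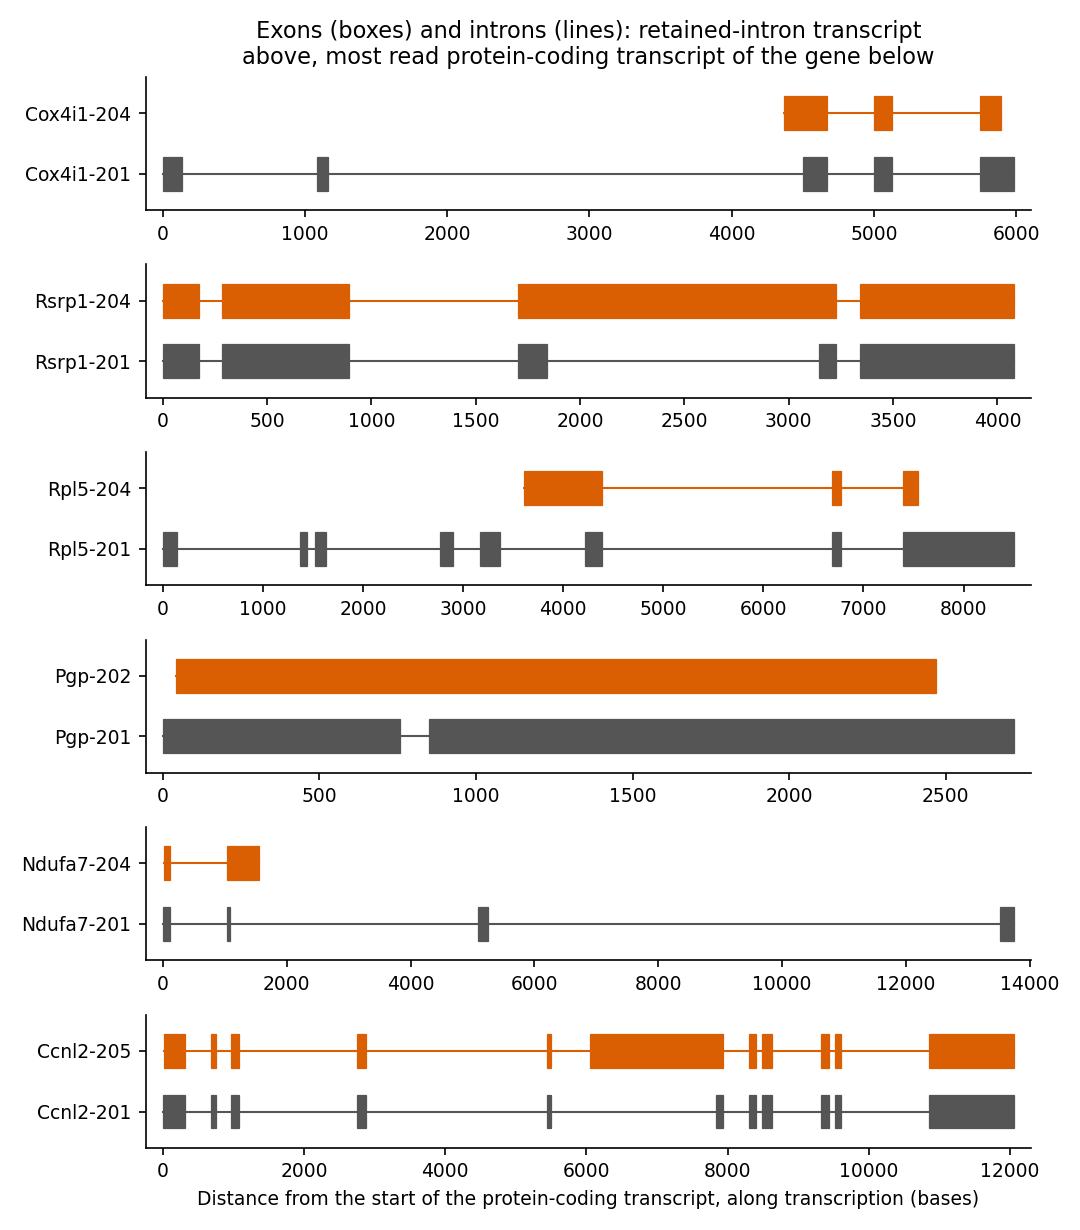
Exons (boxes) and introns (lines) of the 6 most read retained-intron transcripts, each above the most read protein-coding transcript of its gene, by distance in bases from the start of the coding transcript. Rsrp1-204 and Pgp-202 keep a whole intron, Cox4i1-204 and Rpl5-204 start inside one, Ndufa7-204 ends inside one, and Ccnl2-205 has an exon 1790 bases longer.

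Pgp-202, from the gene of phosphoglycolate phosphatase, had 56 of 208 reads in replicate 1 (26.9%) and 59 of 277 in replicate 2 (21.3%). It is a single exon that runs through the 92-base intron printed above. Ndufa7-204, from a gene of a complex I subunit, had 27 of 156 reads in replicate 1 (17.3%) and 79 of 429 in replicate 2 (18.4%), and it ends inside an intron. Fxyd1-213, from the gene of phospholemman, a regulator of the sodium pump, had 36 of 55 reads (65.5%) and 62 of 99 (62.6%). Only 16 of its 255 bases are intronic.

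The other members named among the 25 most read covered several roles. In the secretory and matrix group, Sparc, whose protein binds collagen, had 2 members, Sparc-205 with 39 and 46 reads (3.52% of the gene's reads in replicate 1 and 2.60% in replicate 2) and Sparc-203 with 22 and 23 (1.98% and 1.30%). Egfl7-213, from the gene of a protein secreted by endothelial cells, had 12 and 28 reads, shares of 44.4% and 42.4%. Shares were thus low in the heavily read Sparc and high in Egfl7, with intervals that overlapped between the libraries in each case.

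Members of mitochondrial, ribosomal and proteasomal genes had intermediate or low shares. Psmb6-202, from the gene of a catalytic proteasome subunit, had 29 and 43 reads (16.5% and 13.2%). Cyc1-204, from the cytochrome c1 gene, had 22 and 38 (7.77% and 7.62%). Cox17-204, from the gene of a copper chaperone for cytochrome c oxidase, had 9 and 26 (7.38% and 11.2%). Rpl10a-206, from a large ribosomal subunit gene, stood apart from these with 34 reads in replicate 1 and 21 in replicate 2, 14.7% against 5.33%.

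Regulatory genes made up most of the rest. Dbp-205, from the gene of a clock-controlled transcription factor, had 15 and 31 reads (11.2% and 7.16%), and Hes6-202, from the gene of a basic helix-loop-helix factor, 18 and 21 (10.2% and 11.7%). Arglu1-204, from the gene of a splicing modulator, had 14 and 31 (25.9% and 40.3%). These 3 genes act on transcription or splicing, and the intervals of the 2 libraries overlapped for each. Stub1-206, from the gene of the ubiquitin ligase CHIP, had 13 and 28 (9.92% and 10.1%), and Rnf181-214, also from a ubiquitin ligase gene, 12 and 25 (8.70% and 7.06%). Ppm1a-208, from a protein phosphatase gene, had 14 and 27 (17.1% and 20.0%). The members of these genes of protein turnover and phosphorylation each kept nearly the same share in both libraries. Pcif1-204, from the gene of the enzyme that methylates the adenosine beside the mRNA cap, had 8 and 26 (40% and 50%). Myl6-209, from a myosin light chain gene, had 10 and 27 (4.57% and 5.56%), Rex1bd-207 had 27 and 43 (36.0% and 31.2%), and Ss18l2-207 had 9 and 26 (33.3% and 39.4%).

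**Figure D2:**
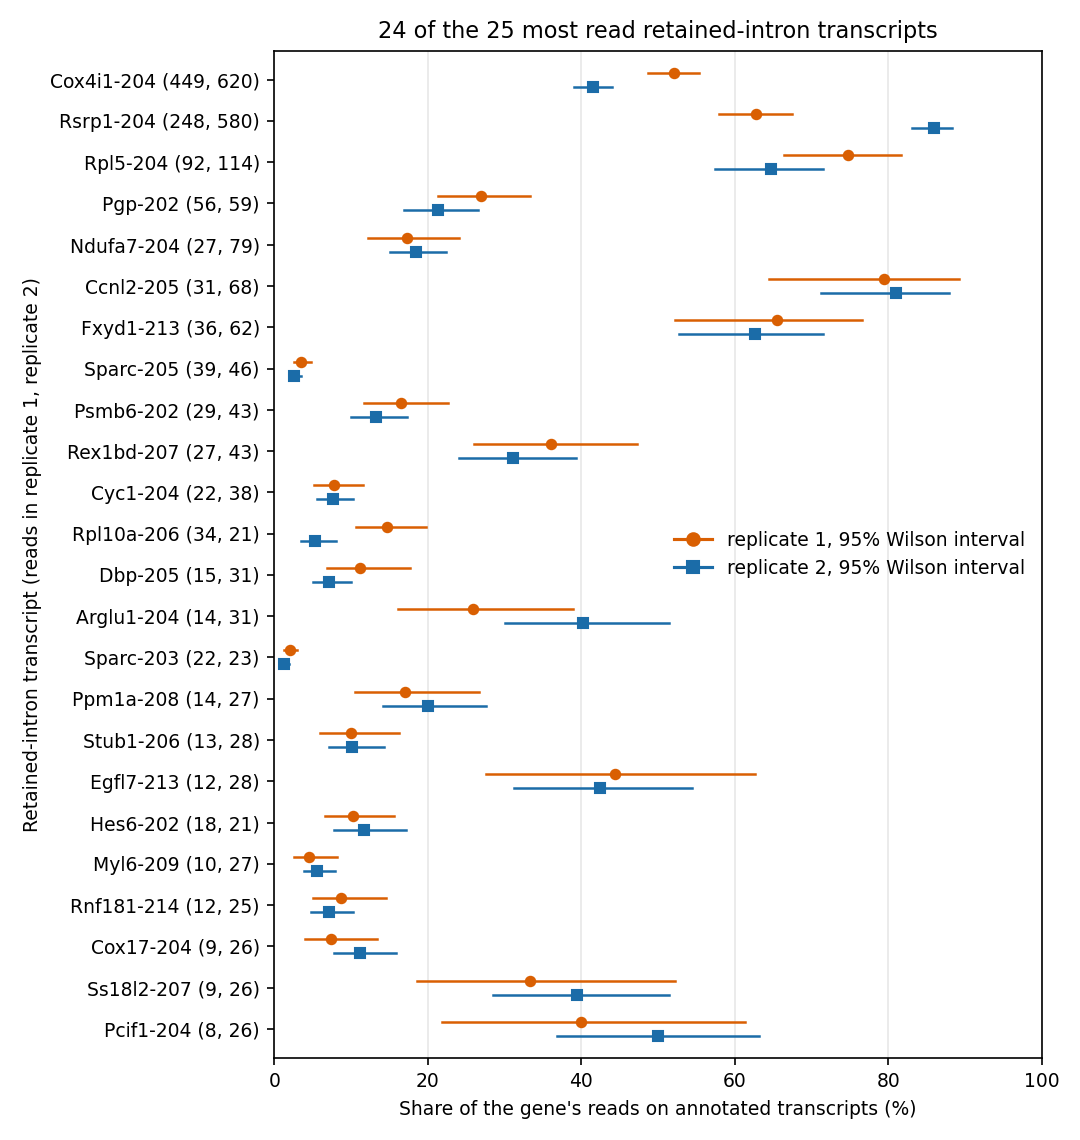
Share of the gene's annotated-transcript reads on each of 24 of the 25 most read retained-intron transcripts, in percent, with 95% Wilson intervals; circles are replicate 1 and squares replicate 2, and the reads of each stand beside the name. The intervals of Cox4i1-204, Rsrp1-204 and Rpl10a-206 do not overlap between the libraries.

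Across all members the share of the gene's annotated-transcript reads had a median of 7.89% in replicate 1, with quartiles of 2.68% and 22.8%, and of 9.20% in replicate 2, with quartiles of 3.29% and 21.7%. Of the 260 members in genes with at least 20 such reads in each library, 107 were below 5% in both libraries, 51 were at 10% or more in both, 20 at 20% or more and 4 at 50% or more. Those 4 were Ccnl2-205, Rpl5-204, Rsrp1-204 and Fxyd1-213. The next highest by the lower of the 2 shares were Egfl7-213, Cox4i1-204 and Pcif1-204. Below them came Chkb-208, from a choline kinase gene, with 37.5% and 39.4%, Ngrn-202 with 40% and 37.3%, Alkbh6-202 with 45.5% and 34.8%, Ss18l2-207, and Hs6st1-202, from a heparan sulfate sulfotransferase gene, with 32.5% and 34.6%. Intervals of neighbours in this order overlapped in both libraries, with the exception of Rsrp1-204 in replicate 2, whose interval lay above those of Rpl5-204 and Fxyd1-213. Another 13 members held all of their gene's annotated-transcript reads. Among them C4a-206 had 7 and 9 reads and C4b-203 had 2 and 7, and since C4a and C4b are near-identical copies their counts are uncertain. A full share of the annotated-transcript reads is not a full share of the gene. Over all models, the intron that C4b-203 keeps was kept in 23 reads in replicate 1 and spliced in 48. In replicate 2 it was kept in 33 and spliced in 86.

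Between the libraries, the median absolute difference of share over those 260 members was 2.02 percentage points. Many of these shares were themselves low, with 107 members below 5% in both libraries, so a small difference in points can be a large part of a share. The share was higher in replicate 1 for 129 and in replicate 2 for 131. Each transcript's reads were set against the rest of its gene's annotated-transcript reads in the 2 libraries by Fisher's exact test, two-sided, for 4723 annotated transcripts of all classes. They were adjusted over all transcripts by the Benjamini-Hochberg method, with a threshold of 0.05. This test compares 2 libraries and not conditions, and covers counting error only. It called 6 of them, 0.127%, with 3 or 0.0635% in each direction. The 6 are 3 pairs of transcripts of the genes Rsrp1, Cox4i1 and Atp5d in which a higher share of 1 goes with a lower share of the other, so they stand for 3 changes. Of the 323 members tested, 2 were called, Rsrp1-204 and Cox4i1-204. The share of Rsrp1-204 in replicate 1 minus that in replicate 2 was -23.1 points (exact test, adjusted p = 3.3e-14), and that of Cox4i1-204 was 10.6 points (exact test, adjusted p = 0.00061). At an unadjusted p under 0.05 there were 19 members, 5.88% of those tested, and 178 transcripts, 3.77%. Rpl10a-206 missed the threshold by Fisher's exact test (adjusted p = 0.077), and was called by an exact binomial test against the library totals, which called 3 of 323 members and 82 of 4723 transcripts, 1.74%.

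**Figure D3:**
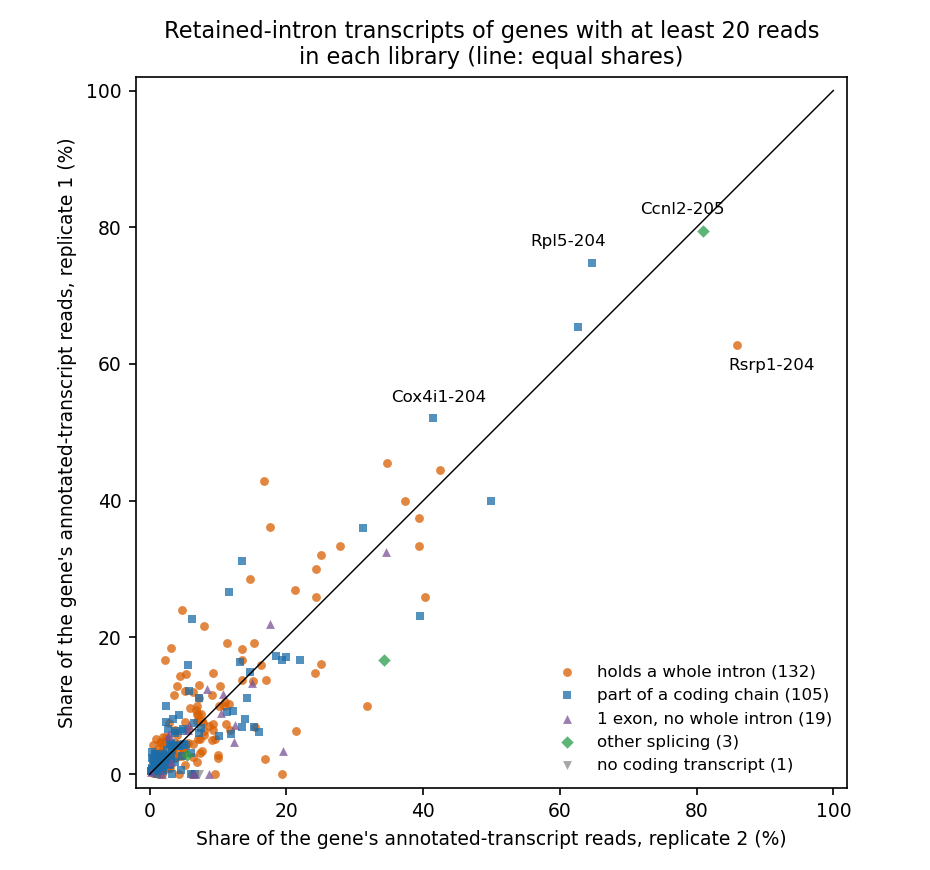
Share of the gene's annotated-transcript reads in replicate 2 (horizontal, percent) against replicate 1 (vertical, percent) for the 260 members in genes with at least 20 such reads in each library; symbols give the structure class and the line marks equal shares. Most points lie near the line and below 20%, and Rsrp1-204 is farthest from it among the members with high shares.

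The members differed in what makes them intronic. Compared with all annotated protein-coding transcripts of the gene, 193 members (50.7%) held at least 1 whole intron, with 45.5% of the member reads in replicate 1 and 48.2% in replicate 2. Another 139 (36.5%) held none, and their splice junctions were a contiguous part of a coding transcript's, with 46.2% of the reads in replicate 1 and 41.6% in replicate 2. A further 30 were a single exon without a whole intron, 7 were spliced in another way, and 12 belonged to genes with no protein-coding transcript. The last group had the highest median share of the gene's reads, 78.6% in replicate 1 and 84.6% in replicate 2. Its 12 members together had only 29 reads in replicate 1 and 88 in replicate 2. No protein-coding transcript takes a part of the reads of these genes, so their shares are not comparable with those of the other groups.

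Members that are part of a coding chain differ from the coding transcript at 1 or both ends and not in the junctions between; 34 of the 139 end within 100 bases of its end. Of the 139, 94 start inside an intron of the most read coding transcript of the gene and 45 end inside one. Those that start in an intron were short, with a median length of 632.5 bases and 160 intronic bases, and had median shares of 4.11% in replicate 1 and 3.45% in replicate 2. Those that end in an intron had a median length of 1385 bases, 642 intronic bases, and median shares of 12.5% and 17.9%. For these members the splice junctions alone do not tell a read of the member from a read of part of the coding transcript. The deposited tables give exons of models and not the ends of reads, and how far incomplete reads enter these counts was not tested. Cox4i1-204, Rpl5-204, Fxyd1-213 and Sparc-205 are of the kind that starts in an intron, while Ndufa7-204, Ppm1a-208 and Pcif1-204 are of the kind that ends in one.

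The 7 members with other splicing were Ccnl2-205, Ssu2-202, Poglut1-205, Tmem129-203, Luc7l-204, Snrnp70-216 and Snrnp70-215. Both Snrnp70 members are from the gene of the U1-70K protein that helps the U1 particle to find the start of the intron, and the protein of Luc7l also joins that particle. Snrnp70-216 had 6 reads in replicate 1 and 25 in replicate 2, 16.7% and 34.2% of its gene, and holds 2366 intronic bases. Luc7l-204 had 1 and 12 reads, 9.09% and 54.5%. The reads behind both were few in replicate 1. Ssu2-202 had 10 and 14 reads.

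In size the members were shorter than coding transcripts. Their median length was 1296 bases with 3 exons, and 72 members (18.9%) had a single exon. The 9898 protein-coding transcripts with at least 5 reads had a median of 2449.5 bases and 8 exons, and 2.62% had a single exon. The 1948 retained-intron transcripts with fewer reads had a median of 1065.5 bases. Set against the most read coding transcript of its own gene, a member was shorter in 221 cases and longer in 148 of the 369 that had one. It had more reads than that coding transcript in both libraries in 28 cases, which include genes such as C4b where no coding transcript had a read.

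The introns themselves were compared within the most read coding transcript of each gene, a choice made after the values were seen. Where no coding transcript of a gene had a read, as in C4b, it was picked by annotation tag and length, here and in the counts above. Members kept 225 whole introns of these transcripts, in 161 genes, and 180 members kept at least 1. Most of these kept a single intron (141), 29 kept 2, and 10 kept 3 or more, with at most 8. They had 1113 reads in replicate 1, 0.364% of the annotated-transcript reads with an interval of 0.343 to 0.386, and 2076 in replicate 2, 0.379% with an interval of 0.363 to 0.395.

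Kept introns were on the short side. Their median length was 241 bases with quartiles of 111 and 625, against 363 bases with quartiles of 121 and 1060 for the 920 other introns of the same transcripts. In 93 of 148 genes with both kinds, the kept introns were shorter than the median of the others. Introns longer than 1000 bases made up 12.9% of the kept and 27.3% of the others, whereas those under 100 bases made up 22.7% and 18.4%. The 6952 introns kept by the other annotated retained-intron transcripts had a median of 260 bases, so short kept introns were not particular to the members. Introns are not replicates and the annotation decides which can be seen as kept, so these lengths carry no test.

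**Figure D4:**
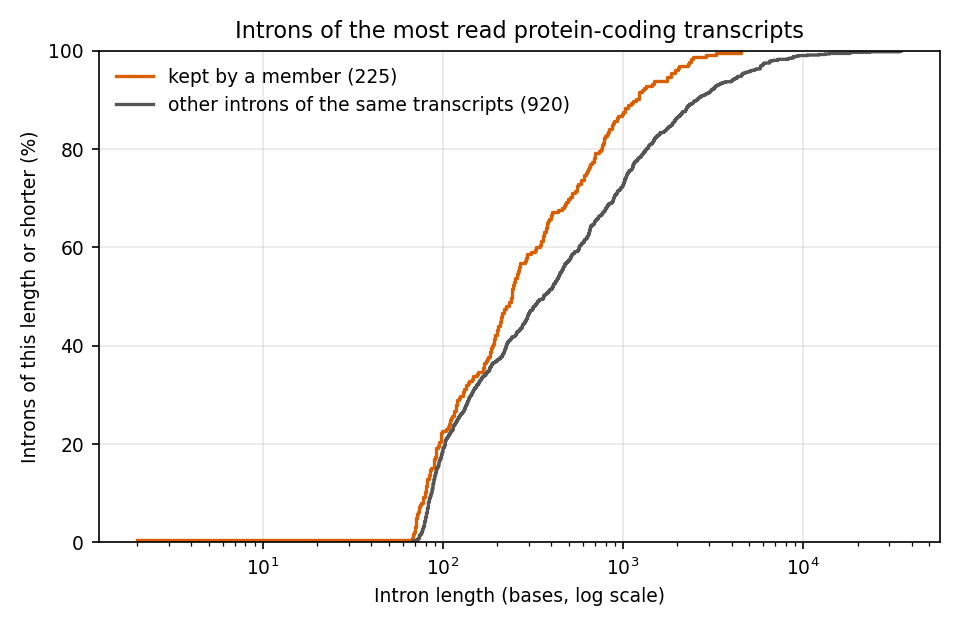
Cumulative share (percent) of introns by length (bases, log scale) in the most read protein-coding transcripts, for the 225 introns kept by a member and the 920 others. The curves run close together at short lengths and part at longer ones; the medians are 241 and 363 bases.

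By position, 212 of the 225 kept introns lay in the coding sequence, 10 in the 5′ UTR and 3 in the 3′ UTR. Of the 220 in transcripts with several introns, 58 (26.4%) were the first and 29 (13.2%) the last, where 13.7% of all introns of those transcripts are first and the same share last. In the coding sequence, 185 of the 212 held an in-frame stop, at a median of 37 bases into the intron, and 140 of these stops lay within 100 bases. Among the 27 without a stop, 3 also had a length that is a multiple of 3, in Aup1, Gapdh and Timm17b. Nearly all kept introns, 223 of 225, ran from GT to AG, 99.1%, against 98.5% of the 6952 introns kept by the other annotated retained-intron transcripts. The donor letters GTATCC or ATATCC, typical of the minor U12 spliceosome and read on the gene's strand, were found in 1 kept intron, in Polr2e, and in 51 of those 6952. Of the kept introns, 10 overlap an exon of another gene on the same strand and 12 one on the other strand, so reads there are uncertain.

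How often an intron was kept was read from all models of the gene, annotated or not, that either cover the intron or splice it exactly. Models of 1 exon that cover the intron count as keeping it. Over introns of any coding transcript, with both libraries summed, the median kept was 25.2% with such models and 17.7% without them. For the 205 introns with at least 10 such reads in each library, the median percent kept was 14.3 in replicate 1, with quartiles of 5.66 and 26.9, and 12.2 in replicate 2, with quartiles of 5.88 and 25.0. In both libraries 58 introns were kept in at least 20% of reads, 8 in at least 50%, and 68 in under 10%. The median absolute difference between the libraries was 4.44 percentage points. Of the reads that keep these introns, 68.7% were on annotated transcripts and the rest on models outside the annotation.

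The 8 introns kept in at least 50% of reads in both libraries lay in Rsrp1, Akap8l, Srsf5, Miip, Apbb3, Hyi and Clk1, which has 2. Intron 3 of Rsrp1 was kept in 267 of 420 reads in replicate 1, 63.6% with an interval of 58.9 to 68.0, and in 660 of 754 in replicate 2, 87.5% with an interval of 85.0 to 89.7. In Akap8l, the gene of a nuclear protein of the AKAP8 family, a 1443-base intron was kept in 39 of 47 reads (83.0%) and 67 of 82 (81.7%). In Srsf5, the gene of a serine- and arginine-rich splicing factor, a 1229-base intron was kept in 76 of 97 reads (78.4%) and 154 of 248 (62.1%), although its member Srsf5-212 had only 8 and 14 reads. Thus for Srsf5 most reads that keep the intron were on models outside the annotation. The same held for Akap8l, with 9 and 9 of the keeping reads on annotated transcripts. It also held for Miip (7 and 9) and Apbb3 (5 and 7), given below. In Rsrp1, Clk1 and Hyi most of the keeping reads were on annotated transcripts. In Miip a 329-base intron was kept in 16 of 20 reads (80%) and 35 of 55 (63.6%). In Apbb3 all 12 and all 26 reads covered a 242-base intron. No read of either library spliced that intron, so it was not seen as an intron in these data. The entry of Hyi is a 2-base gap in the annotation, covered by all 17 and all 25 reads.

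Further down, an 874-base intron of Srsf7, another gene of serine- and arginine-rich factors, was kept in 16 of 28 reads (57.1%) and 29 of 61 (47.5%). Chkb kept its 169-base intron in 16 of 33 reads (48.5%) and 22 of 44 (50%), Arglu1 its 2280-base intron in 16 of 56 (28.6%) and 33 of 81 (40.7%), and Stub1 its 178-base intron in 28 of 146 (19.2%) and 55 of 304 (18.1%). The Chkb intron overlaps an exon of another gene on the same strand and the Stub1 intron one on each strand, so their reads are among the uncertain ones. In Cyc1 the 609-base first intron was kept in 31 of 296 reads (10.5%) and 49 of 514 (9.53%). For Rpl10a the 326-base intron was kept in 46 of 232 reads (19.8%) in replicate 1 and 39 of 395 (9.87%) in replicate 2.

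By gene function, the splicing regulators had a higher percentage of genes with a member than all genes in 5 of 6 ranges of reads, the exception holding 1 splicing gene. Of 9007 genes with at least 5 annotated-transcript reads, 344 or 3.82% had a member. The percentage with a member was higher where genes had more reads, 1.09% at 5 to 19 reads, 10.1% at 200 or more but under 500, and 21% at 500 or more, so counts of lists depend on how well their genes were read. The splicing regulators had 14 genes of 94 with a member (14.9%) at a median of 41 reads a gene, against a median of 30 over all genes. Within reads of 50 to 99, 4 of 16 splicing genes had a member (25.0%) against 4.52% of all genes in that range, and at 100 or more but under 200 reads 4 of 17 (23.5%) against 7.06%. The genes behind these percentages are few and no test was made. A gene without an annotated retained-intron transcript cannot have a member. How many splicing genes, or genes over all, have such a transcript is not given here, and ranges of reads do not match it.

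The median share of the splicing members was 13.1% in replicate 1 and 18.9% in replicate 2, beside 7.89% and 9.20% for all members, and they took 1.83% and 2.62% of the reads of all genes on the list. A minimum of 5 reads is a larger share of a thinly read gene than of a well read one, so shares of lists with different depths are not comparable, and no test was made. They include the kinases that phosphorylate SR proteins, with Clk1-212 at 9 and 4 reads and Clk2-207 at 3 and 5. Among the SR proteins themselves, Srsf5-212 had 28.6% and 14.7% of its gene's reads, Srsf7-207 27.8% and 23.8%, and Srsf2-203 3.61% and 1.18%. Clk1 was thinly read: both kept introns had 13 or fewer reads in each library, and were kept in 92.3% and 91.7% of them in replicate 1 and in 60% in replicate 2. Rbm4b-202 had 3 and 8 reads and Prpf31-205, from the gene of a protein of the U4/U6 particle, 0 and 10.

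Translation genes had a member in 24 cases (12.1%) at a median of 175 reads a gene, where 7.06% of all genes with 100 or more but under 200 reads had one. Their members' median share was low, 1.99% in replicate 1 and 1.67% in replicate 2. Besides those named above, Rpl3-204 had 17 and 12 reads (5.41% and 1.88%), Rpl14-202 had 5 and 16 (2.60% and 4.68%), and Rpl23a-202 had 6 and 14 (4.48% and 4.96%). The gene with the most members was Rpl10a, which had 4. The respiratory chain and ATP synthase had 12 of 87 genes (13.8%) at a median of 387 reads, between the last 2 of those percentages over all genes, with 3.67% and 2.77% of the list's reads on members, most of them on Cox4i1-204. Cox6a1-202 had 10 and 16 reads there (2.46% and 2.29%), and Ndufv1-209 7 and 8 (4.27% and 3.42%).

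Structure differed among the lists as well. None of the 16 splicing members with a coding counterpart starts in an intron of it, and their median intronic length was 1048.5 bases. Of the 28 translation members 15 start in an intron (53.6%), with a median of 248.5 intronic bases, and of the 14 respiratory members 11 do (78.6%), with a median of 122. Over all 369 members with a coding counterpart, 126 start in an intron of it (34.1%) and the median is 326 intronic bases. These are counts of annotated models, and no test was made of them.

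Mitochondrial ribosome genes had 6 of 79 with a member (7.59%), among them Mrpl57-202 with 9 and 16 reads and Mrpl33-203 with 8 and 12. Ubiquitin and proteasome genes had 5 of 108 (4.63%), led by Psmb6-202 and by Usp19-211 with 8 and 12 reads. Chaperones had 1 of 58, Hspe1-202, with 3 and 2 reads. These lists thus ran from 1.72% to 7.59% of genes with a member, on either side of the 3.82% over all genes. Their medians were 92, 76.5 and 63.5 reads a gene in that order, against 30 over all genes. Of all genes with 50 to 99 reads, 4.52% had a member.

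Among the genes that define the gland, none of the steroidogenic enzymes had a member. A gene can have a member only where the annotation holds a retained-intron transcript of it. How many of these genes have such a transcript is not given here, and most genes had no member in any range of reads. Of 32 steroid and cholesterol genes 2 had a member (6.25%) at a median of 276 reads a gene, and members took 0.0501% of the list's reads in replicate 1 and 0.0717% in replicate 2, beside 0.828% and 0.827% over all genes. The percentage of genes lies between that over all genes and the 10.1% of genes with 200 or more but under 500 reads. The 2 members were Srebf2-205, from the gene of the regulator of cholesterol synthesis, with 4 and 10 reads (26.7% and 45.5%), and Fdps-205, from the gene of farnesyl diphosphate synthase, with 8 and 17 (1.97% and 2.69%). Of 17 chromaffin genes none had a member at a median of 63 reads, where 4.52% of all genes with 50 to 99 reads had one.

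**Figure D5:**
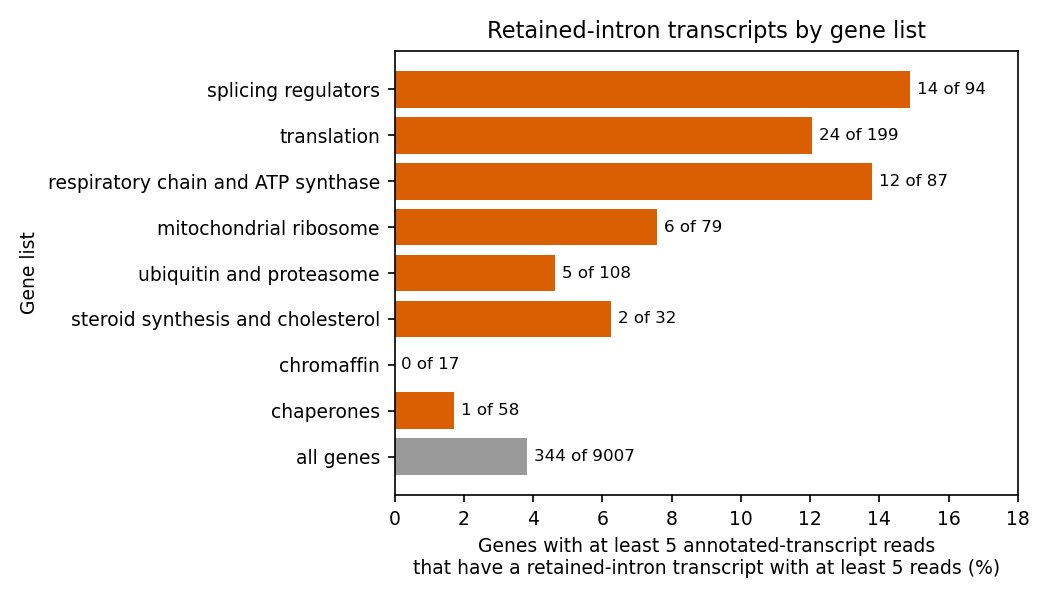
Percent of genes with at least 5 annotated-transcript reads that have a retained-intron transcript with at least 5 reads, by gene list, with all genes in grey; numbers give the genes with a member of all genes in the list. Splicing regulators (14 of 94), the respiratory chain (12 of 87) and translation (24 genes, 12.1%) stand above all genes (344 of 9007), and the chromaffin list has none. The bars are not at equal depth. Median reads a gene were 41 for splicing, 387 for the respiratory chain, 175 for translation, 63 for chromaffin and 30 over all genes. The percentage with a member was higher where genes had more reads. The lists were also not matched for how many of their genes have an annotated retained-intron transcript.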

How the data were processed

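The deposited values are read counts. Per the file headers, a table lists, for a single library, the models that had a read and how many reads each had. Per the labels and file headers, the authors used mm10 and named the models with TALON on GENCODE M21; of the aligner and program versions nothing was given in the sources used here. Exon positions came from the deposited annotations; for all 381 members they were equal to those of the GENCODE reference.

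Members, gene lists and tests were chosen with earlier results of these data known. Members are annotated transcripts of the class retained intron whose reads in the 2 libraries add up to 5 or more. The share of a member is its reads over its gene's annotated-transcript reads, with 95% Wilson intervals. Counts are of reads, which may repeat a molecule, and were not divided by length. Transcript use was tested by Fisher's exact test, two-sided, where a gene had 10 or more annotated-transcript reads in both libraries; no dispersion could be fitted for 2 libraries of 1 group. An intron counts as kept when 1 exon covers all of it.

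Named transcripts are the 25 with the most reads, the 12 with the highest lower share in genes with at least 20 reads in each library, those past the threshold, up to 8 per list, and up to 10 introns for sequence. The introns named for how often they were kept, and the members with other splicing, were chosen after their values were seen. Of these, 1 member and its intron are not reported here. Alternatives changed the read minimum, the denominator, the test, the coding transcripts and the library. Python 3.11.15, SciPy 1.17.1, pandas 2.3.3, statsmodels 0.14.6 and matplotlib 3.10.9 were used.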

Additional observations from a re-analysis of the deposited data

How the results depend on the processing

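Results followed the read minimum, as their definition implies. With at least 10 reads there were 167 members, with 0.671% of reads in replicate 1 and 0.654% in replicate 2, median shares of 12.5% and 13.5%, and 87 holding a whole intron. With at least 3 reads there were 673, 0.929% and 0.939%, 6% and 7.14%, and 321, with a median intron length of 251.5 bases. A read in each library gave 0.793% in replicate 2 and a median share of 9.53% in replicate 1. Members of 2 or more exons held 0.707% and 0.696%, with a median share of 7.45% in replicate 2. Over all models of the genes the values were 0.632% and 0.631%, and 6.06% and 6.25%. When 1 library chose the members, their number was 115 to 246, the percentages 0.631 to 0.695 in replicate 1 and 0.549 to 0.740 in replicate 2, the median shares 7.78 to 16.7 and 11.16 to 11.21, the members with a whole intron 62 to 127, and the median intron length 263 to 269 bases.

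Over introns of any coding transcript, 332 were kept, with a median length of 258.5 bases and a median of 25.2% kept with both libraries summed. Restricting to coding transcripts with reads gave 241.5 bases and 17.7%, annotated models alone 22.1%, models of several exons 17.7%, and single libraries 25.0% to 25.9%. Of the alternatives chosen after the data were seen, introns with 10 reads in each library gave 17.7%, introns of at least 50 bases gave 260 bases, 25.1% and 193 members, and members outside coding splice chains left 1 member called, Rsrp1-204, since Cox4i1-204 is within one. The count of members called was otherwise 2, or 3 by the exact binomial test. That test sets a transcript's reads against the library totals and not against its gene's other reads, so it does not measure the share.

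No paired analysis was possible because there is 1 group. Depth limits the shares: the tested members' genes had a median of 48 reads in replicate 1 and 93 in replicate 2. Genome sequence outside annotated transcripts and the parental alleles were not analysed here.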
